A study of Homo sapiens with 3 samples.

Results

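Telomere maintenance was examined at the RNA level through 10 genes. They are *TERT* and *DKC1* of telomerase, *TERF1*, *TERF2*, *TERF2IP*, *POT1*, *TINF2* and *ACD*, which encode the 6 shelterin subunits, and the telomere-associated genes *RTEL1* and *ATRX*. The genes were chosen by symbol, through the Ensembl gene identifiers of the files, and all 10 had a value among the 27024 counted genes. RNA-seq was performed on 3 libraries of 22Rv1 cells, an established human prostate carcinoma line. All 3 are labelled WT, were grown in RPMI1640 with serum and received no treatment according to the labels. The methods of the study describe the WT samples as control clones and its results as biological replicates, so the spread given below may be between clones or between cultures. There was 1 condition, and enhancer knockout or mutant cells were not analysed here.

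Telomerase is a reverse transcriptase that adds repeats to chromosome ends. *TERT* encodes its catalytic subunit, which is silent in most adult tissues and switched on in most carcinomas. *DKC1* encodes dyskerin, which binds and stabilises the telomerase RNA and also serves in the small nucleolar particles that modify ribosomal RNA. Shelterin coats the repeats and hides chromosome ends from DNA repair. TRF1 and TRF2 (*TERF1* and *TERF2*) bind the duplex repeats and POT1 binds the protruding strand. TPP1 (*ACD*) ties POT1 to TIN2 (*TINF2*), the hub of the complex, and RAP1 (*TERF2IP*) rides on TRF2. RTEL1 is a helicase that unwinds telomere loops, and ATRX is a chromatin remodeller whose loss marks tumours that lengthen telomeres without telomerase.

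The libraries held between 35675670 and 38629080 reads on counted genes. A gene was called expressed where every library reached 1 CPM, the read count scaled by library size. All 7 prostate markers examined were expressed, the lowest being *KLK3* at 341 ± 32.9 normalized counts (SD, n = 3). Of 7 markers of leukocytes, fibroblasts and endothelium, 6 had a row. *PTPRC*, *CD3E*, *COL1A2* and *VWF* held between 0 and 2 reads per library and *DCN* between 1 and 26. *COL1A1*, a collagen gene of fibroblasts, was the exception at 261 ± 17.2 normalized counts (SD, n = 3).

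The sequence before the annotated start of these genes was taken from RefSeq on build GRCh38.p14, which differs from the build of the files, GRCh37. The table held windows for 7 of the 10 genes, without *TERF1*, *TERF2* and *ATRX*. The parts printed are those that no annotated transcript covers, for the telomerase gene with the higher level (*DKC1*) and for the shelterin genes with the highest (*TERF2IP*) and the lowest (*POT1*) level among those with a window. They are reference sequences, not read from these cells. Capitals mark the GC box GGGCGG, on either strand, and in *DKC1* the later run of capitals marks the binding motif of NRF1, a factor of many housekeeping genes.
DKC1, chrX:154762614-154762741, plus strand, 250 to 123 bases before the start: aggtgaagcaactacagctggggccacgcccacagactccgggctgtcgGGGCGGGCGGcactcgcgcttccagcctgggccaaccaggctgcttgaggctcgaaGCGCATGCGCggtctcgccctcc
TERF2IP, chr16:75647666-75647772, plus strand, 107 to 1 bases before the start: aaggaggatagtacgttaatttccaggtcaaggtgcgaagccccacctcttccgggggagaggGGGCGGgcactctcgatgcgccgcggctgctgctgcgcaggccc
POT1, chr7:124930017-124930075, minus strand, 250 to 192 bases before the start: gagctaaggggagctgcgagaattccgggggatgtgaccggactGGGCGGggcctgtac

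Over the full 250 bases before the start, the 7 genes were rich in GC, at 62.8% to 78.8% across their 9 windows, against a median of 58.0% over 35116 RefSeq windows. A GC box stood in at least 1 window of 7 of the 7 genes, whereas 42.6% of all windows held one. *TINF2* and *RTEL1* have a pair of windows each, and 1 of those of *RTEL1* held none. In *DKC1* the 4 matches began 201, 197, 66 and 39 bases before the start, and the pair at 201 and 197 overlap. The NRF1 motif stood in *DKC1* alone among the 7, beginning 145 bases before the start, and in 1.03% of all windows. The E-box CACGTG, which MYC and MAX bind, stood in *TERT* alone, 163 bases before the start, and in 6.35% of all windows. The ETS motif CCGGAAGT stood in 1 window of *TINF2* and 1 of *RTEL1*, and in 3.42% of all windows. Neither the TATA box TATAAA, present in 10.7% of all windows, nor the telomere repeat TTAGGG, in 7.94%, was found in any of the 9 windows. Both strands were searched. These matches describe the letters and no binding was measured.

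All 10 genes were expressed, against 47.7% of all counted genes, among which neighbouring rows without reads were not merged. *DKC1* and *TERF2IP* had the highest levels, and *TERT* and *TERF1* the lowest of the 9 genes ranked. The count of *TERF1* is uncertain, because its transcript has close copies elsewhere in the genome. TERT RNA was present in every library. *RTEL1* had the fewest reads, but shares most of its bases with another gene. Values are the read counts normalized by the authors with DESeq2 (each library divided by its own size factor). Levels between genes are compared per kilobase of the canonical transcript, unless counts or another length are named.

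*TERT* (ENSG00000164362, chromosome 5, 1253262 to 1295183, minus strand, 16 exons in the canonical transcript) was at 458.2, 429.0 and 457.4 normalized counts in replicates 1, 2 and 3. These values rest on 580, 507 and 581 reads, or 14.2 to 15.2 CPM. Replicates 1 and 3 were nearly equal and replicate 2 was lower, with the highest library at 1.07 times the lowest. Per kilobase the level of *TERT* was 111 ± 4.12 (SD, n = 3), and 25.5% of the 12852 expressed genes with an annotated length had a lower level. The template RNA of telomerase, *TERC*, had no row under its symbol, so its level is not known from these data.

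*DKC1* (ENSG00000130826, chromosome X, 153991017 to 154005964, plus strand, 15 exons) had 5293.4, 5445.6 and 5450.2 normalized counts. Replicate 1 was the lowest, and the SD was 1.65% of the mean. Per kilobase its level was 2186 ± 36.1 (SD, n = 3), above that of 91.4% of the expressed genes. The ratio of *DKC1* to *TERT* per kilobase was 18.9, 20.8 and 19.5 in replicates 1, 2 and 3, or 19.7 ± 0.954 (SD, n = 3). The ratio depends on which transcript carries the reads, and was 7.76 with all annotated exons as the length and 12.5 with the longest transcript. *DKC1* hosts the small nucleolar RNA genes *SNORA36A* and *SNORA56*, each of which was listed at 0 in the 3 libraries.

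**Figure D1:**
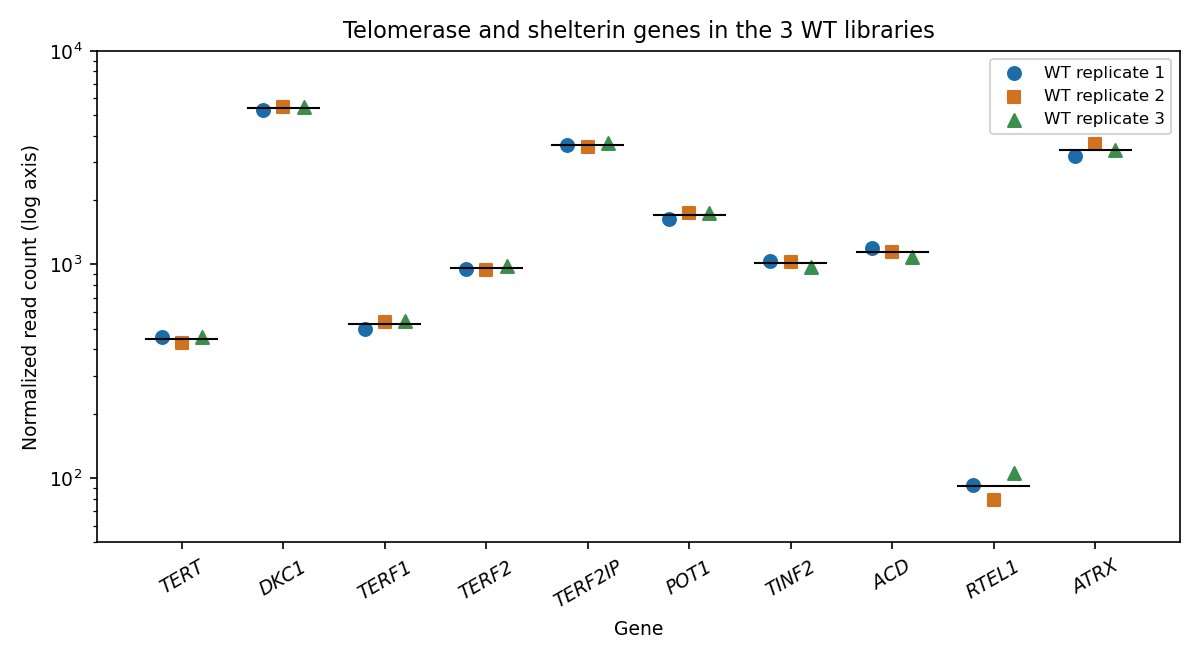
Normalized read count (log axis) of each of the 10 genes in WT replicates 1, 2 and 3, with a line at the mean. The points of a gene lie close together, with the highest library between 1.03 and 1.34 times the lowest, while the genes span from *RTEL1* at 92.2 to *DKC1* at 5396.

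Of the shelterin genes, *TERF2IP* had by far the highest level and *TERF1* the lowest, with the limit on *TERF1* given below. *TERF2IP* (ENSG00000166848, chromosome 16, 75681671 to 75795770, plus strand, 3 exons), which encodes RAP1, had 3630.3, 3563.6 and 3689.9 normalized counts. Per kilobase it was at 1702 ± 29.6 (SD, n = 3), above 88.8% of expressed genes. *TERF2* (ENSG00000132604, chromosome 16, 69389470 to 69442474, minus strand, 10 exons), which encodes the protein that anchors RAP1, had 954.4, 945.3 and 980.1 normalized counts, or 320 ± 6.02 per kilobase. The ratio of *TERF2IP* to *TERF2* per kilobase was 5.31 ± 0.0298 (SD, n = 3) and varied little between libraries, from 5.29 to 5.35. With all annotated exons as the length it was 4.82.

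*TERF1* (ENSG00000147601, chromosome 8, 73921091 to 73960358, plus strand, 10 exons) had 499.3, 539.1 and 543.2 normalized counts, lowest in replicate 1. Its level per kilobase, 158 ± 7.28 (SD, n = 3), was below that of *TERF2*, with a ratio of 0.471, 0.513 and 0.499 in replicates 1, 2 and 3 and 0.494 ± 0.0216 over them. *TERF1* stayed below *TERF2* under each length, at a ratio of 0.388 with the longest transcript and 0.197 with all annotated exons. The count of *TERF1* is uncertain, because 9 other places in the genome matched at least 25% of its transcript at 90% identity or more. The closest in sequence, the pseudogene *TERF1P4* on chromosome X, matched 79.9% of the transcript at 96.4% identity. How reads that map to several places were handled is not given in the sources used here. No other gene of the 10 had such a copy.

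*POT1* (ENSG00000128513, chromosome 7, 124462440 to 124570037, minus strand, 19 exons) had 1639.4, 1743.3 and 1735.1 normalized counts, lowest in replicate 1 as *TERF1* was. *ACD* (ENSG00000102977, chromosome 16, 67691415 to 67694713, minus strand, 12 exons), whose product TPP1 binds POT1 and recruits telomerase, had 1196.2, 1143.3 and 1083.3. *TINF2* (ENSG00000092330, chromosome 14, 24707492 to 24711869, minus strand, 9 exons) had 1035.0, 1029.0 and 969.9 normalized counts, and like *ACD* it was lowest in replicate 3. Per kilobase *ACD* was at 755 ± 37.4, *TINF2* at 562 ± 19.98 and *POT1* at 435 ± 14.7 (SD, n = 3). The counts of *POT1* are the largest of the 3 and its level per kilobase the smallest, since its transcript has 3924 bases against 1511 for *ACD* and 1801 for *TINF2*. The ratio of *ACD* to *POT1* was 1.74 ± 0.140 (SD, n = 3) per kilobase of the canonical transcript and 1.04 per kilobase of the longest. *TINF2* filled a pair of neighbouring rows with the same values in each library, which were counted once.

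Summed per kilobase, the 6 shelterin genes came to 3956, 3922 and 3920 in replicates 1, 2 and 3, or 3933 ± 20.5 (SD, n = 3). *TERF2IP* made up 43.3% ± 0.795 of this sum, *ACD* 19.2% ± 0.863 and *TINF2* 14.3% ± 0.466. *POT1* followed with 11.1% ± 0.430, *TERF2* with 8.15% ± 0.172 and *TERF1* with 4.03% ± 0.206 (SD, n = 3). The order of the 6 shares was the same in each library, but the shares rest on transcript length and on the uncertain count of *TERF1*. *TERF1* fell to 1.86% with the union of exons, and *TINF2* to 8.53% with the longest transcript, below *TERF2* at 9.68%. These are proportions of RNA and not of protein.

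**Figure D2:**
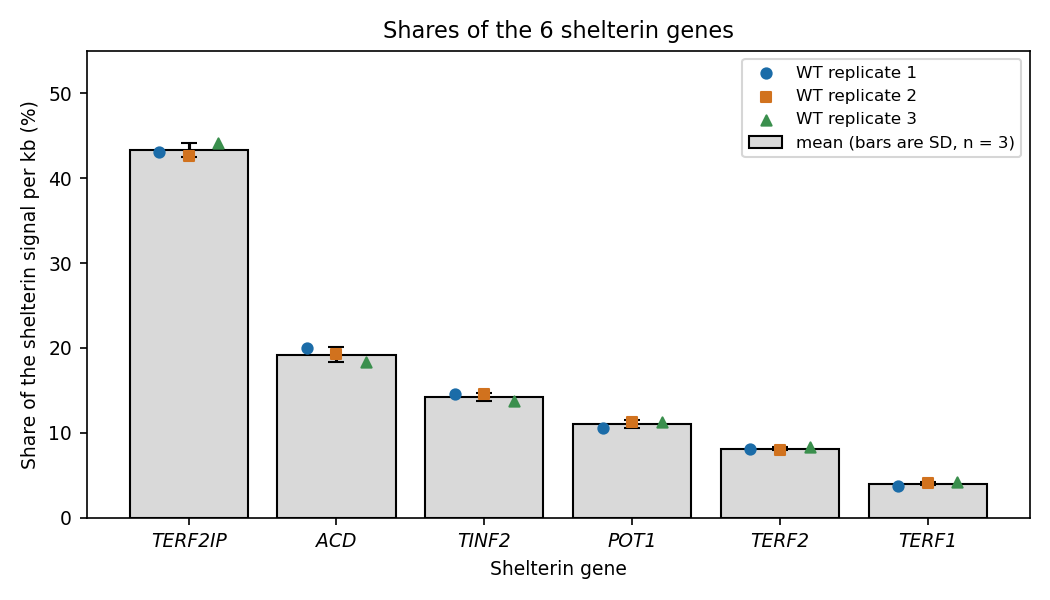
Share of each shelterin gene in the summed level per kilobase of the 6 genes (%), with bars at the mean, error bars at the SD over 3 libraries and a point per library. *TERF2IP* holds 43.3% and *TERF1*, whose count is uncertain, 4.03%. No library changes the order, and the longest transcript (not drawn) puts *TERF2* above *TINF2*.

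*ATRX* (ENSG00000085224, chromosome X, 76760358 to 77041719, minus strand, 35 exons) had 3227.4, 3662.6 and 3430.1 normalized counts. It was highest in replicate 2 and lowest in replicate 1, with the highest library at 1.13 times the lowest. Its canonical transcript of 11165 bases is the longest of the 10, and per kilobase *ATRX* was at 308 ± 19.5 (SD, n = 3), above 49.4% of expressed genes.

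*RTEL1* (ENSG00000258366, chromosome 20, 62289163 to 62327606, plus strand, 35 exons) had 92.4, 78.7 and 105.5 normalized counts, from 117, 93 and 134 reads. Its count was the lowest of the 10 in every library and varied most, with the highest library at 1.34 times the lowest. This value is not a measure of the level of *RTEL1*. The readthrough gene *RTEL1-TNFRSF6B* lies on the same strand and shares 95.2% of the canonical *RTEL1* transcript, which leaves 222 bases of it free. That gene has a row of its own, at 9.63 ± 2.60 normalized counts (SD, n = 3), and how reads on shared bases were assigned is not given in the sources used here. With the canonical transcript as the length, the whole count of *RTEL1* gave 19.98 ± 2.90 per kilobase (SD, n = 3). The same count gave 22.9 ± 3.33 with all exon bases free of other genes with a row as the length (SD, n = 3). With the 222 free bases as the length it gave 415 ± 60.4 (SD, n = 3). How many reads lay on the free bases is not known, so none of these values gives the level of *RTEL1*.

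Overlap with other genes was small in the canonical transcripts of the other 9, between 0% and 12.4% on either strand. The largest was that of *TINF2* with an unnamed long non-coding gene on the opposite strand. *GMPR2*, also on the opposite strand, shares 21.9% of all annotated exon bases of *TINF2*, though none of its canonical transcript. *GMPR2* was at 1541 ± 26.7 normalized counts (SD, n = 3). *TERF2IP* shares 3.99% of its canonical transcript with *KARS1*, which starts on the opposite strand and was at 5619 ± 238 normalized counts (SD, n = 3). The antisense gene of *POT1*, *POT1-AS1*, was at 36.3, 27.1 and 31.5 in the 3 libraries. The sources used here do not say whether counting used strand, so on the bases they share, reads of a gene and its antisense partner cannot be told apart.

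In order of level per kilobase the genes were *DKC1*, *TERF2IP*, *ACD*, *TINF2*, *POT1*, *TERF2*, *ATRX*, *TERF1* and *TERT*, with *RTEL1* left out. The place of *TERF1* rests on its uncertain count. From *DKC1* to *TERT* the level fell 19.7-fold. Of the 8 pairs of neighbours in this order, 7 differed by more than the SD of their difference and kept their order in all 3 libraries. The exception was *TERF2* and *ATRX*, which differed by 12.3 ± 22.0 (SD of the difference, n = 3) and kept that order in 2 of 3 libraries. The difference between *TERF1* and *TERT* was 47.4 ± 9.84 and that between *TINF2* and *POT1* 127 ± 30.3 (SD, n = 3). As ratios the other 7 pairs ran from 1.28 for *DKC1* to *TERF2IP* to 2.26 for *TERF2IP* to *ACD*.

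The order also rests on transcript length. Of the 8 pairs, 5 stood in the same order when the length was the union of annotated exons and when it was the longest transcript. *TERF2IP* moved ahead of *DKC1* under both, at 820 against 587 and 1702 against 1057. *TERT* moved ahead of *TERF1* with the union of exons, at 75.7 against 33.6, where the exons of *TERF1* add up to 15706 bases against 3329 for its canonical transcript. *POT1*, at 432, moved ahead of *TINF2*, at 282, with the longest transcript, which also put *TINF2* below *TERF2* and *ATRX*.

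**Figure D3:**
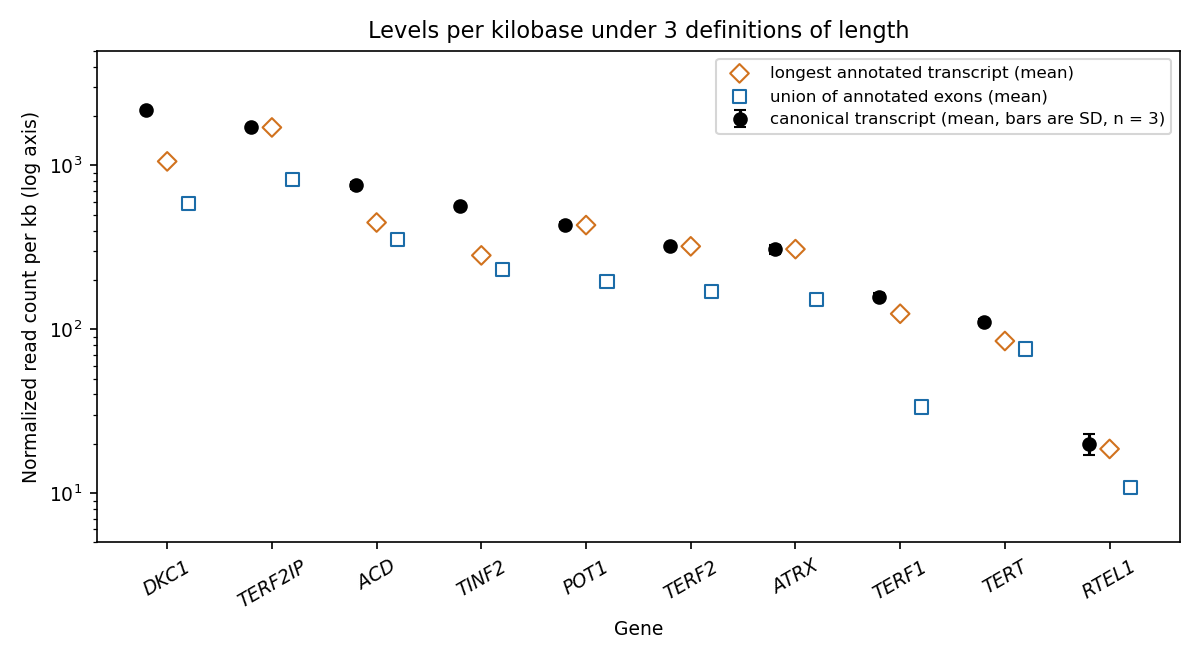
Level of each gene per kilobase (log axis), ordered by the canonical transcript (filled circles, mean with SD over 3 libraries, mostly smaller than the symbol), with the longest transcript as diamonds and the union of exons as squares. *DKC1* and *TERF2IP* lead under each length but swap places, as do *TERF1* and *TERT* with the union of exons, and *TINF2* falls below *POT1*, *TERF2* and *ATRX* with the longest transcript. *RTEL1* is drawn at its value over shared bases, which does not give its level.

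The recovered reads of each gene were set against TMM library sizes in a chi-square test, which, with Benjamini-Hochberg adjustment over 14646 genes, found a difference for 1 of the 10 genes, where 41.9% of all tested genes differed. That gene was *ATRX*, with an adjusted p of 7.32e-07 in this chi-square test. Unadjusted, 2 of the 10 had a p under 0.05, *ATRX* and *ACD*. *ACD* had an adjusted p of 0.0519 (0.0445 with library totals in place of TMM sizes and 0.0308 without replicate 2, each time making 2 of the 10). *TERF2* had the lowest chi-square per degree of freedom, 0.328, and *TERT* was next at 0.697, where independent reads give 1 on average. The median over all tested genes was 3.02. Of genes at a like level, 35.9% differed for *TERT*, 62.5% for *DKC1* and 52.4% for *ATRX*. These p-values measure only the spread between the 3 libraries, and the test takes reads as independent. With the spread of genes of like read number taken into account, 0 of the 10 differed and 0.717% of all genes did. With edgeR's trended dispersion added, 0 of the 10 differed and 0.348% of all genes did.

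As a share of the mean, the SD ran from 1.65% to 6.33% in 9 genes and reached 14.5% in *RTEL1*. Expressed genes of like level, with a ratio of the lower to the higher of at least 0.8, gave the background, and 7 of the 10 had a smaller SD than the median of theirs. For *TERT* the SD was 3.71% against a median of 6.84% over 1051 genes, and for *TERF2* 1.88% against 4.89% over 1559 genes. *TERF2IP* had 1.74% against 3.10%, and *DKC1* 1.65% against 2.99%. *ACD*, at 4.95% against 4.57%, and *RTEL1*, at 14.5% against 14.1%, lay near the middle. *ATRX* stood highest, at 6.33% against 3.19%, and 89.6% of the 1292 genes at its level had a smaller SD.

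The deviation of *ATRX* from its mean on the log2 scale was -0.09 in replicate 1, 0.09 in replicate 2 and -0.01 in replicate 3. Over the 650 expressed genes with transcripts of like length by the same limit of 0.8, the median deviation was -0.01, 0.06 and -0.06. *ATRX* and the median of the long transcripts thus lay on the same side of their means in each library. *ATRX* lay further from its mean than that median in replicates 1 and 2, and nearer in replicate 3. The part of transcript length in the difference of *ATRX* was not tested.

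**Figure D4:**
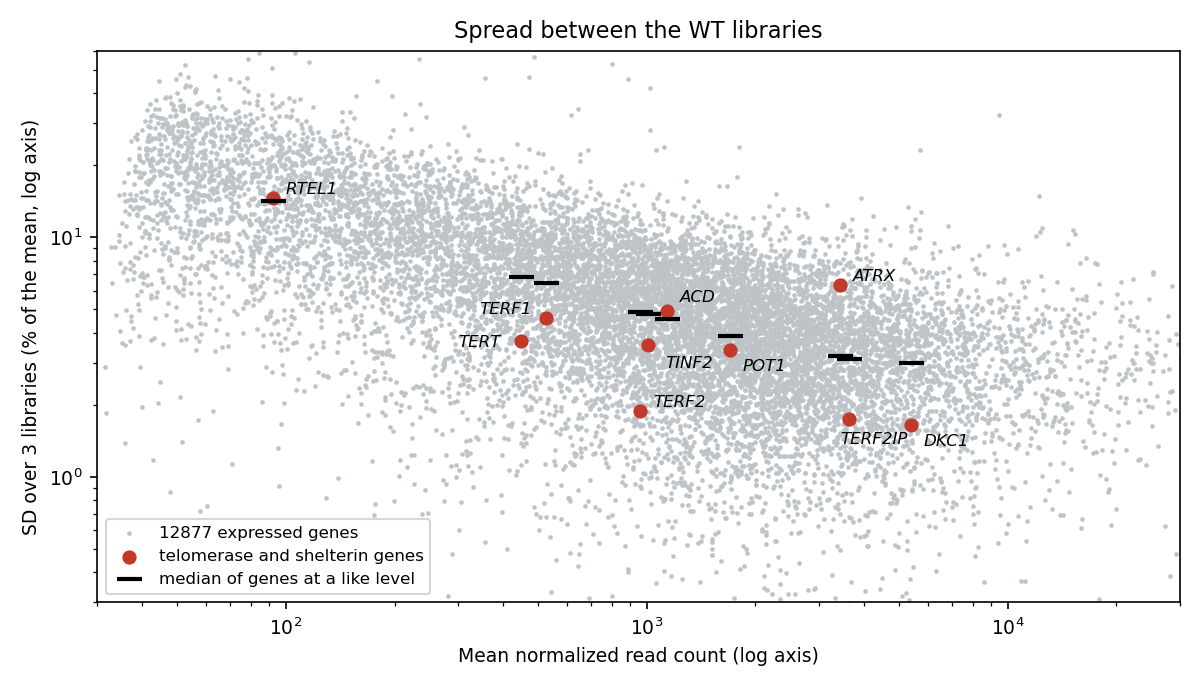
SD over the 3 libraries as a percentage of the mean against the mean normalized count (both log axes), for 12877 expressed genes (grey) and the 10 genes (red), with a dash at the median SD of genes at a like level. *ATRX* lies above its dash at 6.33%, and *TERT*, *TERF2*, *TERF2IP* and *DKC1* lie below theirs.

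The other genes of telomere maintenance were taken from 7 lists by function, 68 genes in all with the 10 included. Of these, 67 had a row and 65 were expressed. The reads of 27 of the 65 tested differed between libraries in the same chi-square test, beside 41.9% of all tested genes. By list, 0 of 6 shelterin genes differed, 5 of 13 telomerase genes, 3 of 6 genes of CST and primase, 3 of 10 helicases and nucleases, 6 of 7 chromatin genes, 7 of 12 shelterin-associated genes and 3 of 11 promoter regulators. No list was tested against the rest. Their median level was 435 per kilobase, against 315 over all expressed genes with a length.

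Of the 14 genes for the telomerase particle, its assembly and the maturation of its RNA, 13 had a row, all of them expressed, with a median of 482 per kilobase. *TERT* was the lowest at 111. *NHP2*, which forms the H/ACA core with dyskerin, was the highest at 6370 ± 227 per kilobase (SD, n = 3). Of the other core proteins, *NOP10* was at 3912 ± 130 and *GAR1* at 1551 ± 28.9, on either side of *DKC1*. The ATPases that help assemble the particle stood with the core, *RUVBL2* at 3744 ± 218 and *RUVBL1* at 2725 ± 68.4. *NAF1* at 404 ± 6.85 and *SHQ1* at 239 ± 1.52, the chaperones of dyskerin, were lower. *WRAP53*, which carries telomerase to Cajal bodies, was at 482 ± 37.1, and *PARN*, a nuclease that trims the telomerase RNA, at 447 ± 16.98 per kilobase (SD, n = 3). Every gene of the list with a row was thus above *TERT*, the nearest being *TENT4B* at 135 ± 8.28. The H/ACA core also serves ribosomal RNA, so these levels do not belong to telomerase alone. In *NHP2*, 48.2% of the transcript overlaps another gene, mainly *RMND5B*.

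The CST complex and polymerase alpha-primase fill in the strand opposite to the one telomerase extends. *PRIM1*, a primase subunit, was the highest of these 7 genes at 1059 ± 57.9 per kilobase, and *POLA2* was at 677 ± 15.4. The CST genes *CTC1* at 133 ± 2.91 and *STN1* at 113 ± 16.4 lay beside *TERT* at the low end (SD, n = 3). Other annotated genes cover 55.8% of the canonical transcript of *POLA2*, 37.5% of *PRIM1* and 32.6% of *STN1*, so these levels are uncertain. *TEN1*, the remaining CST gene, was listed at 0 in each library. Its whole canonical transcript lies within the readthrough gene *TEN1-CDK3*, which was at 217 ± 24.5 normalized counts (SD, n = 3), so the 0 of *TEN1* is not a measure of its RNA.

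Among 10 helicases and nucleases of telomere replication, all were expressed. *FEN1*, the flap nuclease of lagging strand synthesis, was the highest at 3127 ± 164 per kilobase, and *RTEL1* the lowest with the limit given above. Without *RTEL1* the lowest was *SLX4*, a nuclease scaffold, at 107 ± 4.29. *BLM* at 231 ± 8.90, *WRN* at 194 ± 19.5 and *DCLRE1B*, whose product Apollo trims chromosome ends with TRF2, at 258 ± 6.07 lay between *TERF1* and *TERF2* (SD, n = 3).

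Of the 7 genes around ATRX, DAXX and the replication-independent histone H3 variant, all were expressed and *ATRX* was the lowest per kilobase. *DAXX*, the partner of ATRX, was at 1234 ± 50.9 (SD, n = 3). *H3-3A* and *H3-3B*, which encode the variant, were at 11110 ± 384 and 6309 ± 195 (SD, n = 3). Other annotated genes cover 68.7% of the canonical transcript of *HIRA* and 17.2% of that of *DAXX*, so their counts are uncertain. The reads of 6 of these 7 genes differed between libraries in the chi-square test, *ASF1A* being the exception, where 41.9% of all tested genes did. That share depends on level: it was 35.9% for genes at the level of *TERT* and 62.5% at that of *DKC1*. With the spread of genes of like read number taken into account, 0.717% of all genes differed. The count of these 7 under that setting is not given here, so 6 of 7 cannot be set against 0.717%.

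The 12 shelterin-associated and telomere length factors were all expressed. They ran from *TEP1*, which binds the telomerase RNA, at 121 ± 4.42 per kilobase to *HNRNPA1* at 14057 ± 304 (SD, n = 3). Other annotated genes cover the whole canonical transcript of *PINX1* and 91.0% of that of *RAD50*, so their counts are uncertain. *TNKS* at 400 ± 29.3 and *TNKS2* at 464 ± 26.2, the tankyrases that release TRF1 from telomeres, were both above *TERF1*. Of the 12 genes that act on the *TERT* promoter, 11 were expressed. *MYC* was the highest at 2120 ± 83.6 per kilobase, and its antagonists *MXI1* and *MXD1* were at 445 ± 14.5 and 86.3 ± 1.67 (SD, n = 3). *GABPA* at 443 ± 15.6 and *GABPB1* at 235 ± 17.2 encode the GABP factor. *WT1* was the lowest with reads at 54.3 ± 1.96 (SD, n = 3). *ETS1* had 0 reads in each library, which allows up to 3 reads per library by counting error alone.

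**Figure D5:**
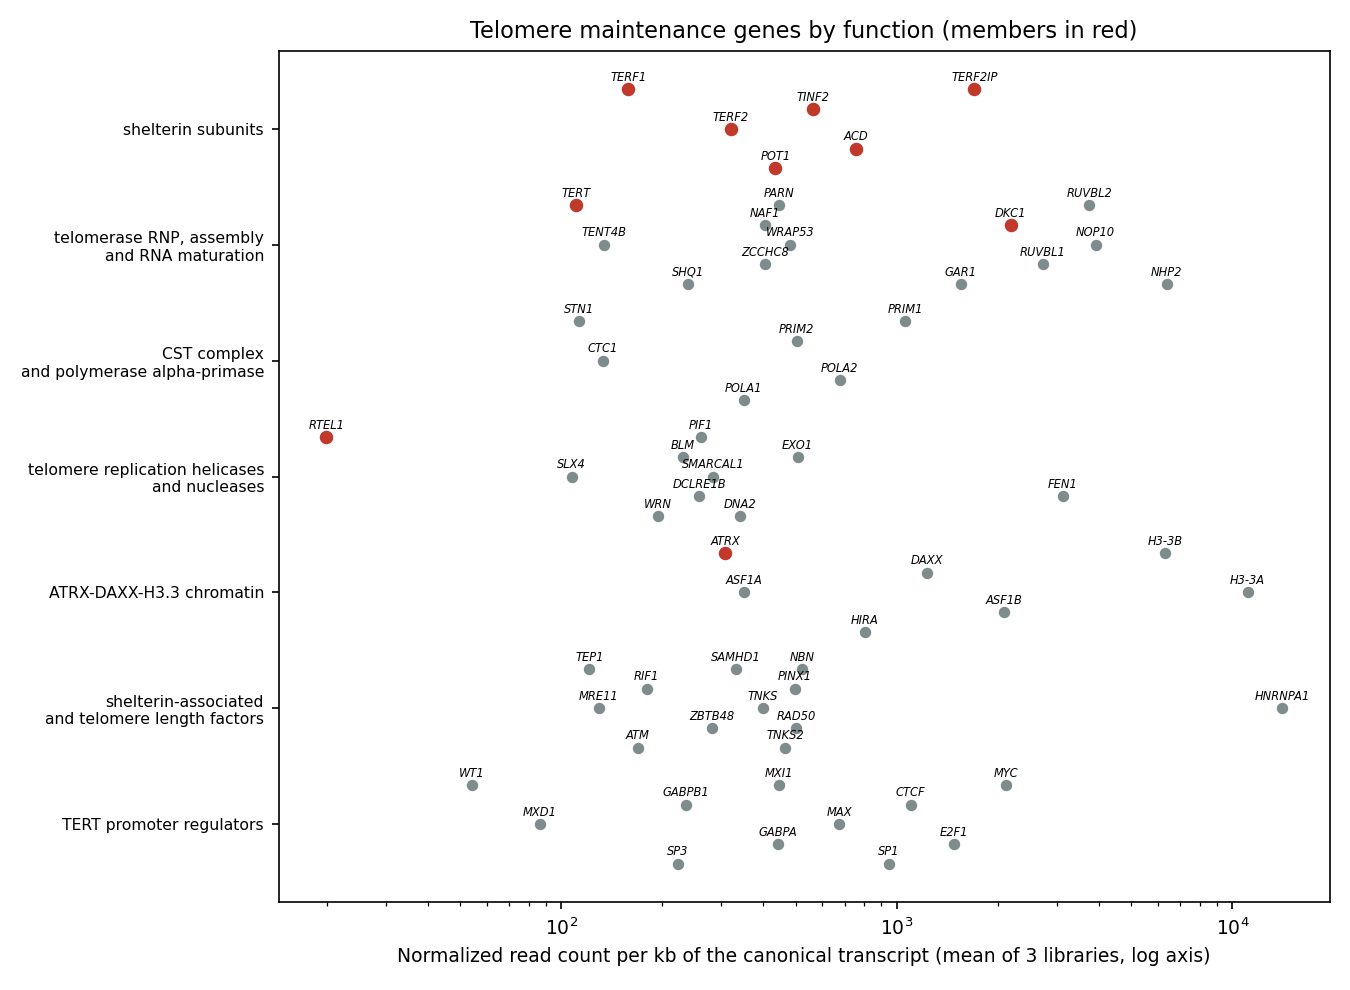
Mean level per kilobase of the canonical transcript (log axis) over 3 libraries for the telomere maintenance genes with reads, by function, with the 10 genes in red. *TERT* is lowest among the telomerase genes at 111, the shelterin genes run from 158 to 1702, and *RTEL1* lies far to the left at 19.98, a value over shared bases.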

How the data were processed

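Total RNA of 22Rv1 WT cells was sequenced by the authors as paired-end reads, mapped with HISAT2 to GRCh37 under GENCODE gene models, then counted by HTSeq. What was deposited is a normalized signal for each gene: the authors scaled the HTSeq counts by DESeq2 size factors and kept 1 decimal. Release, strand setting and treatment of shared reads are not given in the sources used here. Whole reads were recovered from the step of each library, and 100% of the values above 0 were whole within 0.05. This left totals of 38252744, 35675670 and 38629080 reads after 1976 neighbouring rows with reads and the same values as the row before were merged. Neighbouring rows at 0 in every library were not merged. They remain among the 27024 counted genes and lower the share of these called expressed. The step search and the test were checked on simulated data. The simulated reads held counting error only and were tested against library totals, so the check does not cover the wider spread of the real libraries. TMM sizes and dispersions came from edgeR 4.0.16 in R 4.3.3. Reads were compared between libraries by a chi-square test (scipy 1.17.1) where their mean over the 3 libraries reached 10. Benjamini-Hochberg adjusted p-values under 0.05 were called. A single group leaves edgeR no contrast to test. Symbols, positions and lengths came from GENCODE 44 lifted to GRCh37, and copies from minimap2 2.31. The 10 genes, the function lists and the rule for named genes (the 10 genes, any gene of the lists with the highest and lowest of each, and overlapping genes) were chosen with earlier results of these data known. Reads are not independent molecules, so counting limits cover counting error only.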

Additional observations from a re-analysis of the deposited data

How the results depend on the processing

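The count of the 10 genes that differed between libraries was 1. It was 2 with library totals, 0 with the chi-square divided by its inflation at like read number, 0 with edgeR's trended dispersion added, and between 1 and 2 with each replicate left out, *ACD* joining *ATRX* in both cases of 2. Over all genes the count was 6141, against 105 with the inflation and 51 with the dispersion, and it ran from 3323 to 3950 with each replicate left out, where fewer libraries are compared. Transcript length moved the ratios and shares, by construction. With the union of exons, the longest transcript and no length, the *DKC1* to *TERT* ratio was 7.76, 12.5 and 12.1 against 19.7, and the *TERF1* to *TERF2* ratio 0.197, 0.388 and 0.549 against 0.494. With the union of exons the shelterin shares were 1.86% for *TERF1*, 9.44% for *TERF2*, 45.4% for *TERF2IP* and 12.8% for *TINF2*. With the longest transcript they were 3.76% for *TERF1*, 9.68% for *TERF2*, 51.4% for *TERF2IP*, 13.1% for *POT1*, 8.53% for *TINF2* and 13.5% for *ACD*. The per-base values of *RTEL1* over free bases were chosen after seeing the data. The 60 levels recomputed with another scaling or without 1 replicate moved by less than 1 SD. Every scaling tried keeps the total scale of the values, and leaving out 1 of 3 libraries must stay within it, so neither shows stability. No paired analysis was possible because only 1 group was analysed. Depth limits *RTEL1* most: a fall of 5.26 on the log2 scale would bring its mean to 3 reads, against 7.53 for *TERT*.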
